A study of Mus musculus with 12 samples.

Results

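The genes described here are 10 immediate early genes around the transcription factor AP-1, namely Fos, Fosb, Jun, Junb, Egr1, Ier2, Ier3, Zfp36, Atf3 and Gadd45b. They were taken by name, and all 10 were found among the 52636 genes of the count tables. The tables cover 12 RNA-seq libraries of E14, a mouse embryonic stem cell (ESC) line, in 4 groups of 3 libraries that the series calls biological replicates. WT ESCs and ESCs with an shRNA knockdown (KD) of the circular RNA circKat6b-e2 were sampled undifferentiated, in gelatin-coated dishes with LIF, the MEK inhibitor PD0325901 and the GSK3 inhibitor CHIR99021. WT and KD cells were also sampled as embryoid bodies (EBs) at day 6, which are aggregates of differentiating ESCs. The labels give no medium for the EBs, no control shRNA for the WT cells, and do not tell a KD clone from a KD pool, so any other difference between the cell populations is part of each KD value. All 4 groups share the E14 background.

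Immediate early genes are switched on within minutes of a signal, without new protein synthesis, and their mRNAs are short-lived. Fos and Jun family proteins pair through leucine zippers to form AP-1, and the ERK pathway, acting through serum response factor (SRF) and its ETS cofactors, is a classical inducer of Fos and Egr1. PD0325901 blocks MEK, the kinase that activates ERK.

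Total counts were 25.4 to 37.8 M per library, with 20021 to 23548 genes detected. ESC WT replicate 2 stood apart: the chi-square per gene between replicates was 55.4 and 56.0 for its pairs and 4.78 to 9.11 for all others. Kat6b, from which the targeted circle derives, measured 66.1 to 89.3 CPM (counts scaled by normalized library size, in the usual unit) in ESC WT, 98.6 to 106 in ESC KD, 29.1 to 30.8 in EB WT and 60.5 to 62.3 in EB KD. The libraries were made from poly-T selected RNA, which lacks circles, so these values are no check of the knockdown. The summed level of 9 pluripotency markers was 3180 to 4160 CPM over the ESC libraries and 354 to 576 CPM over the EB libraries, in the order of the stage labels.

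In EBs, 8 of the 10 genes fell in KD cells and none rose: Gadd45b, Fos, Fosb, Zfp36, Junb, Egr1, Atf3 and Ier2, by 8.23-fold to 1.39-fold. Jun and Ier3 did not pass the test. The test was edgeR's quasi-likelihood F-test with p-values adjusted by Benjamini-Hochberg over all tested genes, and a gene is called at an adjusted p under 0.05. Of the 17355 genes tested in EBs, 27.7% were called lower and 28.0% higher, so a call in this comparison was common. The members' median log2 fold change was −0.80, against 0.00 over all tested genes. In ESCs, 0 of the 9 members that passed the low-count filter were called by edgeR, where 0.168% of 16081 genes were called higher and 0.435% lower. These are bulk values, in which fewer cells expressing a gene and less RNA per cell cannot be told apart.

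**Figure D1:**
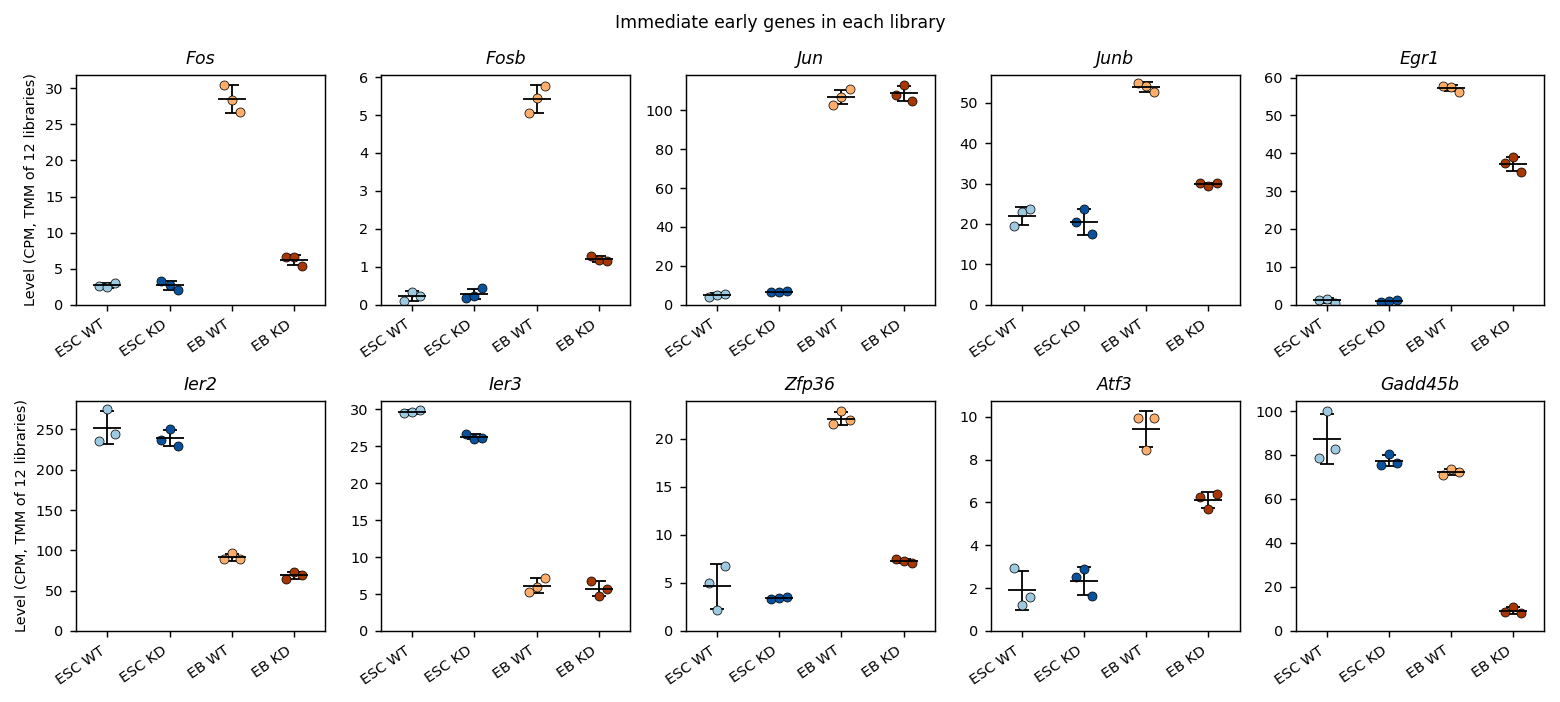
Level of each of the 10 genes in each of the 12 libraries, in CPM on a linear scale with mean and SD, by group (ESC WT, ESC KD, EB WT, EB KD, 3 libraries each). In EBs the KD libraries lie below the WT libraries for 8 genes, and the groups overlap for Jun and Ier3. The share of all genes that separate in this way was not counted.

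Fos, the founding AP-1 subunit (chr12:85473890-85477273, GRCm38, + strand), was low in ESCs and high in WT EBs. It measured 2.55, 2.48 and 3.07 CPM in the ESC WT libraries and 3.29, 2.79 and 2.06 CPM in ESC KD. In EBs it measured 30.5, 28.4 and 26.7 CPM in WT and 6.57, 6.68 and 5.41 CPM in KD. The ESC groups overlapped, whereas every EB KD library lay below every EB WT library and above every ESC library. Fos fell by 2.26 on the log2 scale in KD EBs (SE 0.10, 95% interval −2.46 to −2.05, 4.78-fold, edgeR adjusted p = 2.59e-18). Only 1.19% of all tested genes had a log2 fold change as low or lower.

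Fosb, a close relative of Fos that also pairs with Jun proteins (chr7:19302696-19310051, − strand), followed the same order at lower levels. The ESC libraries held 3, 8 and 6 counts in WT and 4, 6 and 12 counts in KD, too few for the ESC test. In EBs it reached 5.05, 5.45 and 5.77 CPM in WT and 1.29, 1.18 and 1.15 CPM in KD, with no overlap. The fall in KD EBs was 4.68-fold (log2 fold change −2.23, SE 0.21, edgeR adjusted p = 2.16e-10).

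Jun, the partner that binds DNA with Fos or with itself (chr4:95049034-95052222, − strand), was higher in EBs than in ESCs in both genotypes. It did not pass the KD test in EBs. ESC libraries held 4.04, 5.00 and 5.70 CPM in WT and 6.26, 6.47 and 6.78 CPM in KD. EB libraries held 103, 107 and 111 CPM in WT and 108, 113 and 105 CPM in KD. The EB groups overlapped, and the log2 fold change in KD EBs was −0.03 (SE 0.04, 95% interval −0.12 to 0.05, edgeR adjusted p = 0.517). With the normalization of all 12 libraries its sign turned, to 0.03. Jun shares 232 exonic bases (7.28% of its exonic length) with the antisense gene Junos, and the counts carry no strand.

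Junb, a Jun family member known as a weaker activator (chr8:84974484-84978718, − strand), was intermediate. Its levels were 19.5, 22.9 and 23.8 CPM in ESC WT and 20.5, 23.7 and 17.4 CPM in ESC KD. They were 54.9, 54.3 and 52.6 CPM in EB WT and 30.1, 29.5 and 30.2 CPM in EB KD. The KD EB libraries thus sat between the ESC and the WT EB libraries, with no overlap on either side. The fall in KD EBs was 1.88-fold (log2 fold change −0.91, SE 0.06, edgeR adjusted p = 3.06e-14). Junb shares 173 exonic bases (7.52%) with Prdx2.

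Egr1, a zinc-finger transcription factor induced through SRF (chr18:34859823-34864984, + strand), had the widest range of the 10 genes between stages. It measured 1.12, 1.62 and 0.558 CPM in ESC WT and 0.755, 0.838 and 1.11 CPM in ESC KD. EB libraries held 57.8, 57.5 and 56.3 CPM in WT and 37.3, 39.0 and 35.1 CPM in KD. All KD EB libraries were below all WT EB libraries, by 1.61-fold in the fit (log2 fold change −0.68, SE 0.06, edgeR adjusted p = 1.14e-11).

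Ier2 and Ier3, named for their immediate early response, ran the other way between stages: both were higher in ESCs than in EBs. Ier2 (chr8:84661331-84662852, − strand) measured 236, 275 and 245 CPM in ESC WT and 237, 250 and 230 CPM in ESC KD. In EBs it measured 89.4, 96.6 and 88.9 CPM in WT and 63.9, 73.4 and 69.3 CPM in KD. It fell 1.39-fold in KD EBs (log2 change −0.47, SE 0.05, edgeR adjusted p = 1.80e-09), with no overlap. Ier3 (chr17:35821684-35822923, + strand) measured 29.5, 29.6 and 29.9 CPM in ESC WT, and 26.7, 26.0 and 26.1 CPM in ESC KD. In EBs it measured 5.26, 6.01 and 7.17 CPM in WT and 6.75, 4.70 and 5.63 CPM in KD. Those EB groups overlapped, and its log2 fold change was −0.17 (SE 0.17, 95% interval −0.51 to 0.17, edgeR adjusted p = 0.413).

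Zfp36 encodes tristetraprolin, which binds AU-rich elements and speeds the decay of short-lived mRNAs (chr7:28376784-28380253, − strand). ESC WT libraries held 5.00, 2.14 and 6.78 CPM, the 2.14 coming from ESC WT replicate 2, and ESC KD libraries held 3.33, 3.39 and 3.57 CPM. EB libraries held 21.5, 22.9 and 21.9 CPM in WT and 7.45, 7.26 and 7.12 CPM in KD. All 3 KD EB libraries lay far under the WT ones, a fall of 3.16-fold (log2 fold change −1.66, SE 0.10, edgeR adjusted p = 1.80e-15). Zfp36 shares 125 exonic bases (3.60%) with the gene model Gm44710.

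Atf3, a stress-induced bZIP factor that can pair with Jun proteins (chr1:191170296-191218039, − strand), measured 2.92, 1.20 and 1.60 CPM in ESC WT and 2.53, 2.87 and 1.62 CPM in ESC KD. EB libraries held 9.92, 8.47 and 9.93 CPM in WT and 6.27, 5.68 and 6.40 CPM in KD, with no overlap. It fell 1.61-fold in KD EBs (log2 change −0.68, SE 0.13, edgeR adjusted p = 6.76e-05). The fit across all 12 libraries did not call it (edgeR adjusted p = 0.0789).

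Gadd45b, a small stress-response protein that acts on MAP kinase signalling (chr10:80930073-80932204, + strand), had the steepest fall of the 10. It measured 78.8, 100 and 82.6 CPM in ESC WT and 75.5, 80.5 and 76.4 CPM in ESC KD. In EBs it measured 70.7, 73.8 and 72.3 CPM in WT and 8.53, 11 and 7.95 CPM in KD. All ESC and WT EB libraries lay between 70.7 and 100 CPM, and all KD EB libraries lay at or below 11 CPM. The fall was 8.23-fold (log2 change −3.04, SE 0.09, edgeR adjusted p = 2.87e-19), and 0.375% of tested genes had a value as low or lower.

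**Figure D2:**
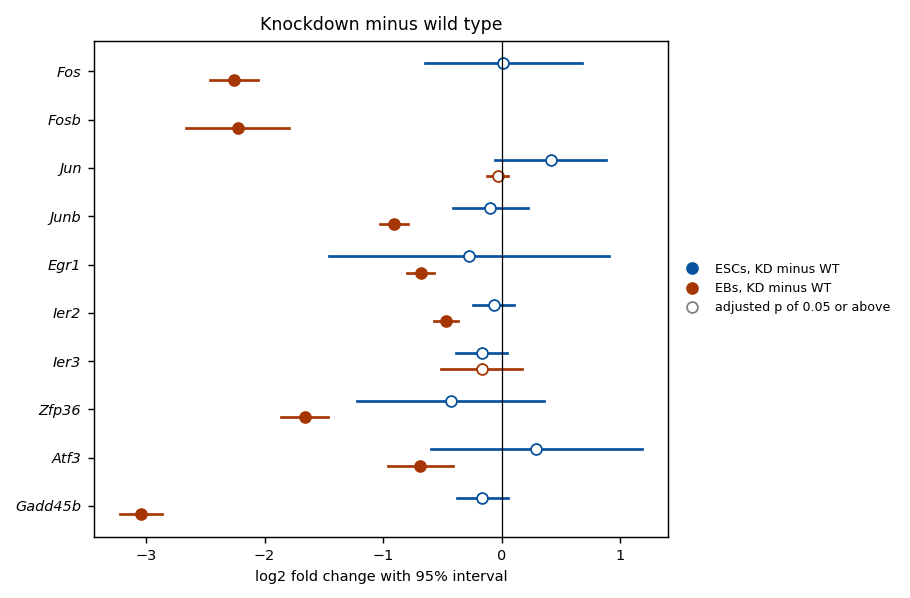
Log2 fold change of KD against WT in ESCs and in EBs for each gene, with 95% intervals from the edgeR fit; filled points were called at an adjusted p under 0.05 and Fosb was not tested in ESCs. In EBs the points run from −3.04 (Gadd45b) to −0.03 (Jun). No ESC point was called, where 0.168% of all tested genes were called higher and 0.435% lower.

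The sequence before the transcription start is shown for Fos, Junb, Gadd45b and Zfp36, which fell together in KD EBs, and for Jun, which did not pass. RefSeq promoter windows (GRCm38.p6) were searched for 8 of the 10 genes, not for Egr1 or Ier2. Each sequence below is read 5′ to 3′ on the gene's strand and ends at the base before the RefSeq start, except that Gadd45b ends 18 bases earlier, where the exon of the count annotation begins, and that Zfp36 is a stretch of 30 bases around its motif. All 250 bases before the RefSeq start of Zfp36, this stretch included, lie within an exon of the count annotation, whose gene begins further upstream. Distances are counted from the RefSeq start. Capitals mark matches to the searched motifs. In Fos (chr12:85473640-85473889, + strand) they are a CRE core, TGACGT, 66 to 61 bases before the start and a TATA box, TATAAA, 33 to 28 before it. In Jun (chr4:95052223-95052472, − strand) they are TGACATC, a variant AP-1 site, 45 to 39 bases before the start. In Junb (chr8:84978749-84978998, − strand) they are an EGR site, GCGTGGG, on the opposite strand, 81 to 75 bases before the start. In Gadd45b (chr10:80929841-80930072, + strand) they are a TATA box 46 to 41 bases before the start. In Zfp36 (chr7:28379267-28379296, − strand) they are a CArG box, the SRF motif, 58 to 49 bases before the start.
Fos: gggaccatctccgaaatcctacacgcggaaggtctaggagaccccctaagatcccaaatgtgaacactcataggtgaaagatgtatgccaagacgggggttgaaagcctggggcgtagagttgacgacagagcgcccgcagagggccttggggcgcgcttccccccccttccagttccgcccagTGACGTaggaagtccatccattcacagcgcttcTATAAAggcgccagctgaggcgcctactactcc
Jun: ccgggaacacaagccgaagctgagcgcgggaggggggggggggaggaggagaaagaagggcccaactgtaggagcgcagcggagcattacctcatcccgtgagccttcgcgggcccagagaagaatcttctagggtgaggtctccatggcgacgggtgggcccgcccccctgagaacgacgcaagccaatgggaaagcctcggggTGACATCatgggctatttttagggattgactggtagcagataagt
Junb: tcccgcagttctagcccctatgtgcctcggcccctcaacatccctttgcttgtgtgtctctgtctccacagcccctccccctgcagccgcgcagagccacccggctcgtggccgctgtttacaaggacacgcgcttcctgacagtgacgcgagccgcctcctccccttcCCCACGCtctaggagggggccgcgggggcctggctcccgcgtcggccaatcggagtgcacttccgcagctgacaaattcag
Gadd45b: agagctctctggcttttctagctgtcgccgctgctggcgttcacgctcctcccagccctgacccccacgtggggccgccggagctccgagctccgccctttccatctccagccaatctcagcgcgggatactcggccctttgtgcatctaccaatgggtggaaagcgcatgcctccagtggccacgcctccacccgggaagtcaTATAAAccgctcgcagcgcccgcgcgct
Zfp36: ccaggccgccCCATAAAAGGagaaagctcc

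Both strands of 32851 RefSeq windows were searched for the same 7 motifs, and the 250 bases before the start of the 8 genes were counted beside them. The CRE core was in 2 of 8 (Fos and Atf3), against 6.47% of all windows. The TATA box was in 2 of 8 (Fos and Gadd45b; 12.4% of all windows), the variant AP-1 site in 1 (Jun; 4.83%), the EGR site in 1 (Junb; 4.30%), the ETS core CCGGAA in 1 (Zfp36; 12%) and the CArG box in 1 (Zfp36; 1.47%). The AP-1 site TGACTCA was in 0 of 8, against 4.46% of all windows. The searched windows of the genes that fell thus share no single one of these motifs, which says only that the letters are not in these 250 bases. Egr1 and Ier2, which also fell, were not searched.

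In ESCs the log2 fold changes of KD against WT were 0.01 for Fos (SE 0.30, 95% interval −0.65 to 0.68), −0.10 for Junb (SE 0.14), −0.27 for Egr1 (SE 0.54, 95% interval −1.46 to 0.91), −0.07 for Ier2 (SE 0.08), −0.43 for Zfp36 (SE 0.36), 0.29 for Atf3 (SE 0.41) and −0.16 for Gadd45b (SE 0.10). The lowest edgeR adjusted p among the 9 tested was 0.285, for Jun (log2 fold change 0.41, SE 0.21, 95% interval −0.06 to 0.88). Also 0 of the 9 had an unadjusted p under 0.05, against 3447 of all 16081 tested genes. DESeq2 called 0 of the 6 members to which it gave an adjusted p (not Fos, Egr1 or Atf3), and 1030 genes in all. A count of 0 among so few genes says little about them. Leaving out ESC WT replicate 2 also gave 0 called members, where 1557 genes were called in all. The KD libraries of Jun lay all above the WT libraries, and those of Ier3 all below them (log2 fold change −0.17, SE 0.10, edgeR adjusted p = 0.345). How many of all genes separate in this way was not counted. In the fit of all 12 libraries Jun was called (log2 fold change 0.42, edgeR adjusted p = 0.0303). The value of Zfp36 depended on the WT libraries: without ESC WT replicate 2 its log2 fold change was −0.77 (edgeR adjusted p = 0.065), and without ESC WT replicate 3 it was −0.06. The spread between ESC replicates (edgeR's biological coefficient of variation) was 40.5% for Egr1, 33.5% for Atf3 and 30.4% for Zfp36, against a median of 16% over tested genes, and the ESC interval of Egr1 holds its EB value of −0.68. In EBs the spread of the 10 genes ran from 4.21% (Jun) to 16% (Fosb), around a median of 9.07%.

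EBs were set against ESCs within each genotype in a single edgeR fit of all 12 libraries. The ESCs were in LIF with a MEK inhibitor and a GSK3 inhibitor, and the EB medium is not given. Stage and any change of medium or inhibitors therefore cannot be told apart. In WT cells 42.5% of 18975 genes were called higher in EBs and 37.3% lower, and in KD cells the shares were also 42.5% and 37.3%. Of the genes called in WT, 53.3% were higher in EBs, or 65.2% with library size as the only scaling. All 10 genes were called in both, 7 higher and 3 lower. In WT the rises were 52.1-fold for Egr1 (log2 fold change 5.70, SE 0.20), 24.7-fold for Fosb (4.63, SE 0.43), 21.9-fold for Jun (4.45, SE 0.10), 10.6-fold for Fos (3.40, SE 0.18), 4.87-fold for Atf3 (2.28, SE 0.29), 4.74-fold for Zfp36 (2.24, SE 0.26) and 2.45-fold for Junb (1.29, SE 0.11). In KD they were 40.7-fold for Egr1, 16.7-fold for Jun, 4.09-fold for Fosb, 2.62-fold for Atf3, 2.30-fold for Fos, 2.12-fold for Zfp36 and 1.46-fold for Junb. The 7 genes that rose hold the AP-1 subunits, Egr1, Zfp36 and Atf3. Ier2 fell 2.75-fold in WT and 3.47-fold in KD, and Ier3 fell 4.82-fold and 4.61-fold. Gadd45b fell 8.46-fold in KD (log2 fold change −3.08, SE 0.12, edgeR adjusted p = 9.89e-13). In WT its log2 fold change was −0.27 (SE 0.10, edgeR adjusted p = 0.0257), which turned to 0.27 with library size as the only scaling and lost its call without any 1 of the WT EB libraries (edgeR adjusted p from 0.0549 to 0.0832).

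**Figure D3:**
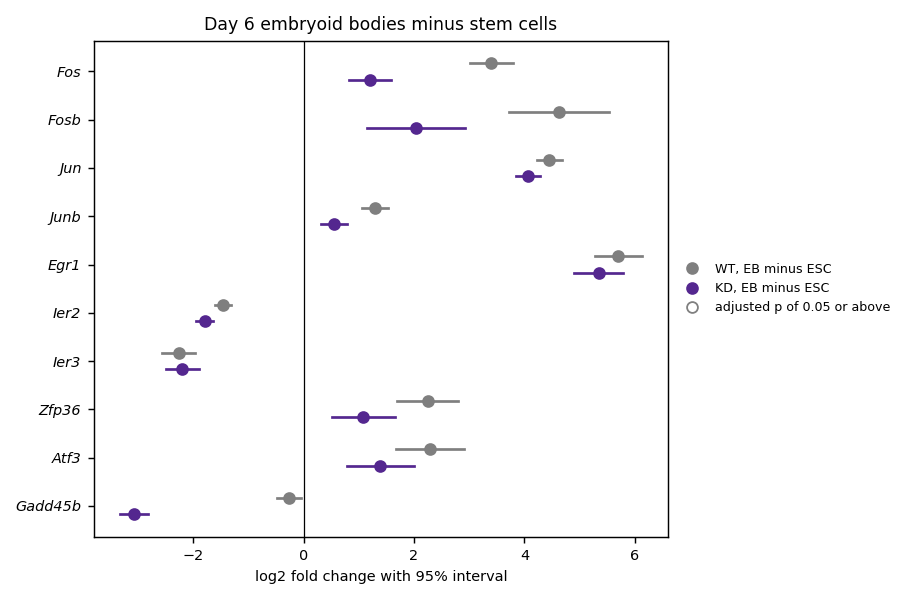
Log2 fold change of day 6 EBs relative to ESCs, for WT and for KD cells, with 95% intervals, from the edgeR fit of 12 libraries; all points are filled because all were called. The WT and KD points lie farthest apart for Gadd45b (−0.27 and −3.08), Fosb (4.63 and 2.03) and Fos (3.40 and 1.20).

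Whether the KD effect differed between the stages was tested in the same fit, as the effect in EBs minus the effect in ESCs. The unknown EB medium limits this test in the same way. That fit uses a single spread per gene for both stages, although the median spread was 16% in ESCs and 9.07% in EBs. Its SE therefore need not match those of the fits within a stage. In this test 12.8% of genes were called higher and 10.2% lower. The higher ones were 55.6% of the calls, or 35.3% with library size as the only scaling. Of the 10 genes, 6 were called lower and 4 were not called, with a median of −0.82 against 0.03 over all tested genes. The difference was −2.81 for Gadd45b (SE 0.15, edgeR adjusted p = 1.87e-08), −2.59 for Fosb (SE 0.62, edgeR adjusted p = 0.00684) and −2.20 for Fos (SE 0.25, edgeR adjusted p = 2.04e-05). It was −1.16 for Zfp36 (SE 0.37, edgeR adjusted p = 0.0345), −0.75 for Junb (SE 0.15, edgeR adjusted p = 0.00232) and −0.34 for Ier2 (SE 0.10, edgeR adjusted p = 0.0213). Zfp36 lost this call in 9 of the 12 fits without 1 library each, namely those without any ESC KD or EB library (edgeR adjusted p from 0.0522 to 0.0746). Ier2 lost it without EB WT replicate 2 (0.0624) and without EB KD replicate 1 (0.0617). Jun missed the threshold (−0.39, SE 0.14, edgeR adjusted p = 0.0552) and passed it without ESC WT replicate 2 (0.0172), ESC WT replicate 3 (0.00636) or ESC KD replicate 1 (0.046). Atf3 (−0.89, SE 0.40, edgeR adjusted p = 0.126) passed it without ESC WT replicate 1 (0.00975), while Egr1 (−0.36, SE 0.32) and Ier3 (0.06, SE 0.19) were not called in any of these fits.

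Per length, in CPM per kilobase of exon, the order of the 10 genes changed with stage and genotype. The length is that of all annotated exons of a gene merged, not of a single mRNA. Ranks between genes, and the family shares below, therefore depend on the annotation. In ESC WT the order was Ier2 166, Gadd45b 54.9, Ier3 26.2, Junb 9.58, Jun 1.54, Zfp36 1.34, Fos 1.15, Atf3 0.884, Egr1 0.245 and Fosb 0.0360 CPM per kilobase, with the libraries of neighbours overlapping from Jun through Atf3. In EB WT it was Ier2 60.2, Gadd45b 45.5, Jun 33.5, Junb 23.4, Egr1 12.8, Fos 12.1, Zfp36 6.37, Ier3 5.44, Atf3 4.38 and Fosb 0.869, with overlaps between Egr1 and Fos and between Zfp36 and Ier3. In EB KD it was Ier2 45.3, Jun 34.1, Junb 13, Egr1 8.28, Gadd45b 5.77, Ier3 5.04, Atf3 2.84, Fos 2.64, Zfp36 2.1 and Fosb 0.193, with overlaps between Gadd45b and Ier3 and between Atf3 and Fos. Gadd45b thus moved from rank 2 in WT EBs to rank 5 in KD EBs, and Fos from rank 6 to rank 8.

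The makeup of the Fos and Jun families, summed per length, shifted as well. The summed level of Fos, Fosb, Fosl1 and Fosl2 was 16.3 to 17.4 CPM per kilobase in WT EBs and 4.71 to 5.38 in KD EBs, against 1.65 to 2.39 over all ESC libraries. Fos made up 72.2% ± 2.60 (SD, n = 3) of that sum in WT EBs and 51.9% ± 2.67 in KD EBs, while the share of Fosl2 was 16.9% ± 2.62 and 33.4% ± 4.56. Fosl2, a late-acting family member, had itself fallen in KD EBs (log2 change −0.80, SE 0.09, edgeR adjusted p = 1.07e-08), but less than Fos. The summed level of Jun, Junb and Jund was 58.8 to 61.0 CPM per kilobase in WT EBs and 48.4 to 50.8 in KD EBs. Jun made up 55.9% ± 1.01 of it in WT EBs and 69.0% ± 0.817 in KD EBs, and Junb 39.1% ± 1.55 and 26.3% ± 0.945. In ESC WT Junb held 62.0% ± 1.33 of the Jun family and Jun 9.92% ± 0.716, so the leading Jun family mRNA differed between the stages. The family shares are given as levels without a test. Fosl2 and Jund are named here because they complete the families.

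**Figure D4:**
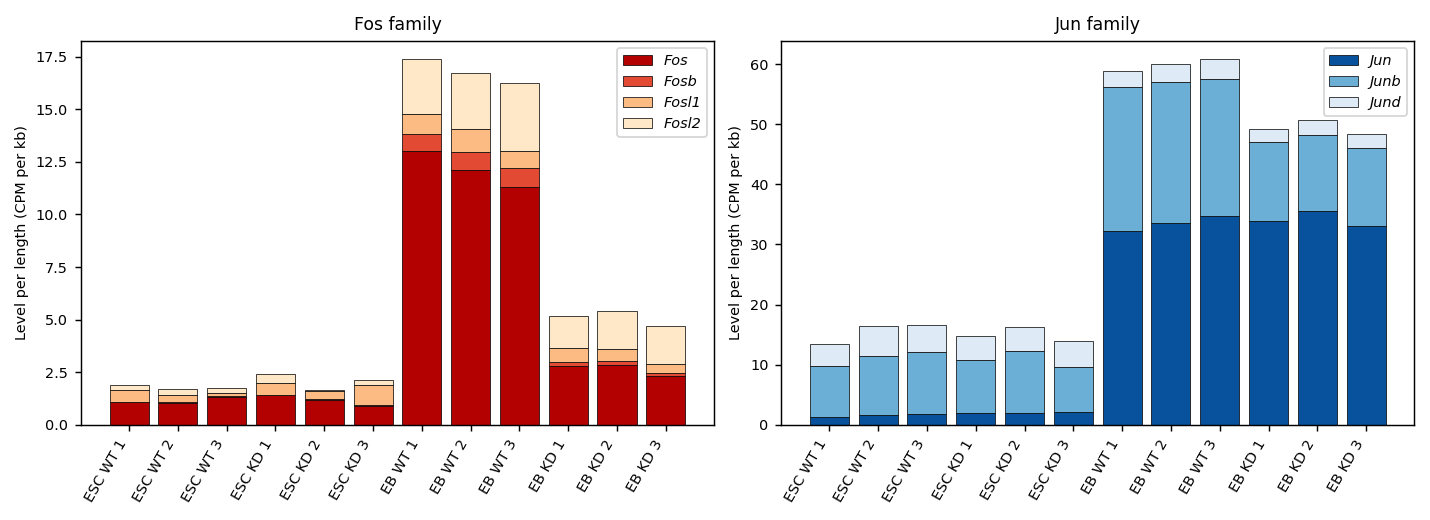
Level per length of the Fos family (left) and the Jun family (right) in each of the 12 libraries, in CPM per kilobase, stacked by gene. The Fos family bars of the KD EBs reach 4.71 to 5.38 against 16.3 to 17.4 in WT EBs, and the Jun segment is 32.3 to 34.7 in WT EBs and 33 to 35.5 in KD EBs.

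Among 17 other AP-1 and related bZIP genes, 16 were tested in EBs, and 5 were called higher and 7 lower (median log2 fold change −0.06). Of all genes tested in EBs, 28% were called higher and 27.7% lower. The ends of that range were Batf, a partner of Jun proteins in immune cells (−2.20, SE 0.51, edgeR adjusted p = 0.000492), and Fosl1 (−0.83, SE 0.33, edgeR adjusted p = 0.0319) on the low side. On the high side was Maf, a large Maf factor (1.31, SE 0.10, edgeR adjusted p = 1.48e-12). The call of Fosl1 was lost in 4 of the 6 fits without 1 library. Those 6 fits called 4 to 6 of these genes lower, with 4 in the fits without replicate 2 or 3 of EB WT or of EB KD, and the fit of all 12 libraries called 1.

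A list of 36 other immediate early genes, all tested in EBs, had 25 called lower and 2 higher, with a median log2 fold change of −0.41. The shares over all genes tested in EBs were 27.7% lower and 28% higher. The lowest were the nuclear receptor Nr4a3 (−2.07, SE 0.48, edgeR adjusted p = 0.000465) and the secreted neuropeptide precursor Vgf (−1.96, SE 0.16, edgeR adjusted p = 8.89e-12). The only ones called higher were Myc (1.06, SE 0.08, edgeR adjusted p = 1.13e-12), the growth regulator, and the kinase Sgk1 (0.92, SE 0.06, edgeR adjusted p = 6.84e-15). Myc measured 14.7, 17.5 and 17.8 CPM in WT EBs and 35.1, 37.3 and 36.5 CPM in KD EBs. Between stages, 22 of the 36 were called higher and 8 lower in WT EBs, against 18 and 15 in KD EBs. Over all tested genes 42.5% were called higher and 37.3% lower in each genotype. The stage difference in KD effect was called lower for 12 of the 36 and higher for 1, against 10.2% and 12.8% of all tested genes.

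**Figure D5:**
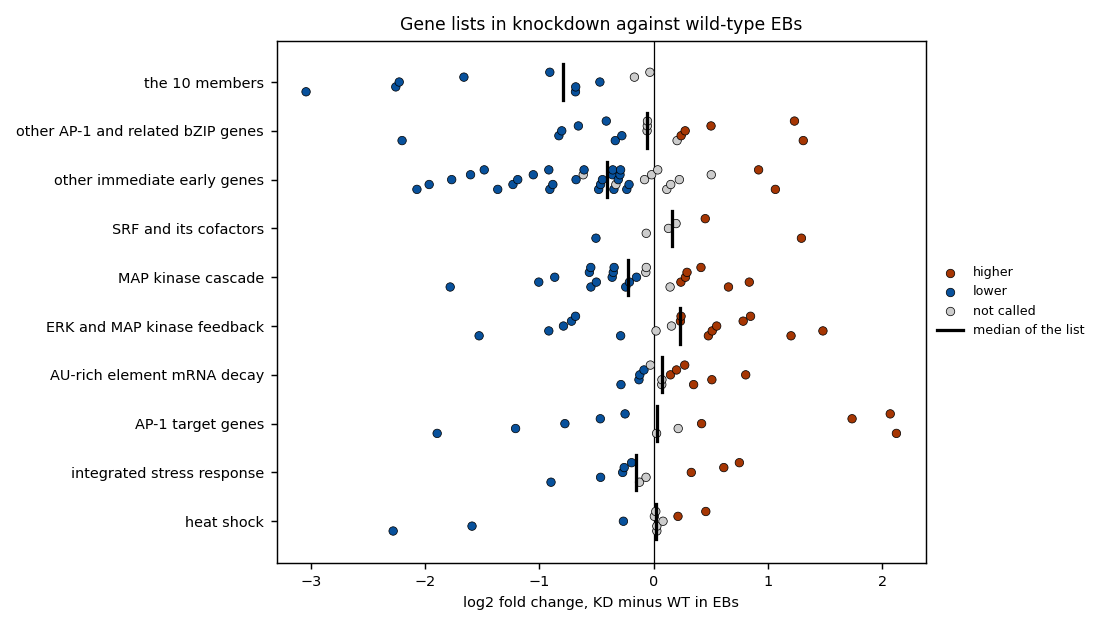
Log2 fold change of KD against WT EBs for the tested genes of the 10 lists of AP-1, signalling, mRNA decay, target and stress genes (cell type markers are not drawn), 1 point per gene, with the list's median as a bar; red points were called higher, blue points lower and grey points were not called. The medians of the 10 genes (−0.80) and of the other immediate early genes (−0.41) lie farthest below 0 among the lists drawn.

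Regulators upstream of these genes moved in both directions in KD EBs, as did tested genes at large (28% called higher and 27.7% lower). Srf itself fell (log2 change −0.51, SE 0.04, edgeR adjusted p = 3.77e-12). Srf measured 120 to 124 CPM in the WT libraries and 86.9 to 91.7 CPM in the KD libraries. Its cofactors Elk3, an ETS factor known as a repressor, and Mrtfb, an actin-responsive coactivator, rose (1.29, SE 0.10, and 0.45, SE 0.07), and the other 3 of the 6 genes in that list were not called. Of 22 tested MAP kinase cascade genes, 13 were called lower and 6 higher, while the fit of all 12 libraries called 8 lower. The lowest were the p38 kinase gene Mapk13 (−1.78, SE 0.10) and Rps6ka4 (−1.01, SE 0.10), which encodes a kinase that phosphorylates histone H3 at immediate early genes. The highest were the ribosomal S6 kinase genes Rps6ka3 (0.84, SE 0.05) and Rps6ka2 (0.65, SE 0.05).

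Feedback genes of ERK and MAP kinase signalling had 9 called higher and 6 lower of 17 (median 0.23). Among all tested genes 28% were called higher and 27.7% lower. Spry4, an inhibitor induced by ERK, measured 7.24 to 8.16 CPM in WT EBs and 21.2 to 23.9 CPM in KD EBs and rose (log2 change 1.48, SE 0.10, edgeR adjusted p = 4.15e-14), and Etv4, an ETS factor downstream of FGF, rose by 1.20 on the log2 scale (SE 0.10). The MAP kinase phosphatases Dusp8 and Dusp1 fell by 1.53 (SE 0.10) and by 0.92 (SE 0.08) on that scale. Dusp1 is also counted in the list of other immediate early genes.

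The mRNA decay list, which holds the relatives of Zfp36 and the deadenylation and decapping factors, had 6 of 13 genes called higher and 4 lower (median 0.07). For this list and the next, the shares over all tested genes were 28% higher and 27.7% lower. Zfp36l2, a relative of Zfp36, rose by 0.80 on the log2 scale (SE 0.04, edgeR adjusted p = 5.10e-18) where Zfp36 fell, and Cnot6, a deadenylase subunit, rose by 0.51 (SE 0.04). Khsrp, an AU-rich element binding protein, fell by 0.29 (SE 0.04), and the decapping factor Dcp1a by 0.13 (SE 0.05, edgeR adjusted p = 0.0249). The Dcp1a call was lost in 4 of the 6 fits without 1 library (edgeR adjusted p up to 0.13) and in the fit of all 12 libraries (0.676). Of 15 AP-1 target genes 11 were tested, with 4 called higher and 5 lower (median 0.02). The secreted phosphoprotein Spp1 (2.12, SE 0.24) and the matrix protease Mmp9 (2.07, SE 0.10) were at the high end. The chemokine Ccl2 (−1.90, SE 0.23) and the urokinase receptor Plaur (−1.21, SE 0.13) were at the low end.

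Stress lists were split too. Of 10 integrated stress response genes, 5 were called lower and 3 higher in KD EBs (median −0.16), with the pseudokinase Trib3 (−0.90, SE 0.18) and the eIF2 phosphatase subunit Ppp1r15a (−0.47, SE 0.07; also in the immediate early list) lowest and Vldlr (0.75, SE 0.07) and Atf5 (0.61, SE 0.08) highest. Of 10 heat shock genes, 3 were called lower and 2 higher (median 0.02), which is near the shares over all tested genes. Hspa1a (−2.28, SE 0.26) and Hspa1b (−1.59, SE 0.16), the inducible Hsp70 genes, fell, and since they are near-identical copies their counts cannot be cleanly separated. Hsph1 (0.46, SE 0.04) and Hspd1 (0.21, SE 0.03) rose.

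In ESCs, Myc (log2 change 0.84, SE 0.16, edgeR adjusted p = 0.0435) and Spred2, a Ras-ERK inhibitor (0.61, SE 0.11, edgeR adjusted p = 0.038), were the genes called in these 9 lists. Both lost the call in 4 of the 6 fits without 1 library. Without ESC WT replicate 2, edgeR called 3 of the other immediate early genes higher and 2 lower, 2 MAP kinase cascade genes higher and 3 lower, 2 feedback genes higher and 1 lower, and 1 other AP-1 or related gene higher. DESeq2 on all 6 ESC libraries called the same numbers, except 0 higher and 2 lower in the MAP kinase cascade. Over all tested genes edgeR without that replicate called 1557, and DESeq2 called 1030.

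Markers of several cell types also differed between WT and KD EBs, where 28.0% of all tested genes were called higher and 27.7% lower. Of 6 mesenchyme markers 5 were called higher in KD EBs, and their summed level was 539 to 549 CPM in WT and 1720 to 1770 CPM in KD. Of 9 pluripotency markers 8 were called higher (354 to 363 and 551 to 576 CPM). Of 5 cardiomyocyte markers 4 were called lower (43.2 to 47.6 and 12.8 to 16.4 CPM). Of 6 epithelium markers 4 were tested, and all 4 were called lower (2740 to 2850 and 1930 to 2060 CPM). Of 5 trophoblast markers 3 were tested, and 2, Hand1 and Tfap2c, were called lower (804 to 814 and 530 to 547 CPM, with Prl3d1 at 0). In WT, only 1 of those 3 was called higher in EBs than in ESCs, and 1 was called lower. Endothelium markers had 4 of 5 higher and 1 lower (62.9 to 68.8 and 96.3 to 105 CPM, with Emcn at 0 in WT). Endoderm markers had 2 higher and 2 lower of 5 (163 to 169 and 280 to 295 CPM), of which Sox17 and Foxa2 lost their calls in the fit of all 12 libraries (edgeR adjusted p = 0.246 and 0.694). Neural markers had 1 higher and 1 lower of 5 (13.6 to 15.0 and 20.0 to 21.6 CPM). Leukocyte markers summed to 9.27 to 10.2 CPM in WT and 4.14 to 4.27 CPM in KD, with Ptprc at 0 in both. Only 1 of these 6 markers was tested, and it was called lower. Erythroid markers summed to 0.869 to 1.59 and 0.700 to 1.68 CPM, with Hbb-bh1, Hba-x and Hbb-y at 0 in WT. Of these 5 markers 2 were tested, and 1, Gata1, was called lower. The Gata1 call was lost in 3 of the 6 fits without 1 library. It was also lost in the fit of all 12 libraries (edgeR adjusted p = 0.0586). The part of these shifts in the results of the 10 genes was not tested. Some of the marker sums were higher in undifferentiated ESCs than in WT EBs. Leukocyte markers summed to 49.3 to 58 CPM in ESC WT and neural markers to 47.7 to 60.7 CPM. Erythroid markers summed to 2.08 to 4.61 CPM there. The mean endothelium sum was 98.8 CPM in ESC WT and 65.8 CPM in EB WT. The mesenchyme, cardiomyocyte, epithelium, endoderm and trophoblast sums were lower in ESC WT than in EB WT. How far a sum follows its cell type was not tested.

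Likeness between genes was described by the root mean square difference of centred log2(CPM + 1) over the 12 libraries, where a smaller value means a more similar course. The nearest member was Fosb for Fos (0.332), Egr1 for Jun (0.444), Atf3 for Junb (0.415), Ier3 for Ier2 (0.305) and Fosb for Zfp36 (0.343). Gadd45b had no close match, its nearest being Ier2 at 0.872. Outside the 10, the nearest genes included Ctse (0.199), Ankrd63 (0.215) and Gsap (0.228) for Fos, Prkd1 (0.141) and Irs2 (0.213) for Egr1, and Rab15 (0.252), Efemp1 (0.256) and Igfbpl1 (0.264) for Zfp36. These names hang on the added constant: with 0.5 CPM in place of 1, 0 of the 3 nearest stayed among the 3 nearest for Fos, and 1 of 3 each for Egr1 and Zfp36. Nearness among the 10 was computed with 1 CPM added only. Fosb lay at 0.0933 to 0.442 CPM in the ESC libraries, under that constant, which compresses its difference between stages. Its nearness to Fos and Zfp36 depends on this.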

How the data were processed

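The authors deposited unnormalized gene counts, with ESCs and EBs in separate tables. HISAT2 2.1.0 (mm10), featureCounts 2.0.3 and DESeq2 1.18.1 are named in the submitters' processing notes. Per the file headers, paired reads with both ends mapped were counted on Ensembl release 90 (GRCm38), with no strand option and no pair option, and reads shared with an overlapping gene are uncertain. Of deposited counts from 1 to 10, 61.7% to 68.7% per library were even, so mates appear to be counted singly. How multiply aligned reads were treated is not given in the sources used here.

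Counts were tested with edgeR 4.0.16 in R 4.3.3 (limma 3.58.1): TMM scaling, filterByExpr (min.count 10, min.total.count 15), a robust quasi-likelihood F-test and Benjamini-Hochberg adjustment at 0.05 over all tested genes. KD against WT was fitted within a stage (6 libraries), and EB against ESC and the difference between stages in a single fit of 12 libraries in 4 groups. Each SE was derived from the fold change and its F statistic (absolute log2 value over root F). Printed CPM use TMM over all 12 libraries, so a ratio of CPM can differ slightly from a fitted fold. DESeq2 1.42.0, other scalings, no filter, a replicate block and fits without 1 library were alternatives. The pipeline was tested on simulated data. Depth was 25.4 to 37.8 M counts, and p-values cover the spread between these libraries only.

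The 10 genes and the gene lists were chosen with earlier results of these data known. All 10 genes are named. Of another list, called genes may be named, and where more than 4 were called, the 2 lowest and the 2 highest by log2 fold change. The 3 genes nearest to Fos, Egr1 and Zfp36 by the likeness measure are named. A few genes that this rule would name are not reported here. Fosl2 and Jund were named outside this rule, after their values were seen. Promoter windows are from RefSeq (GRCm38.p6), with searched stretches of 250 bases before the start. Figures were drawn with matplotlib 3.10.9.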

Additional observations from a re-analysis of the deposited data

Results flagged for a closer look

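The effect of the KD differed between EBs and ESCs by a direct test for 6 of the 10 genes, as the log2 effect in EBs minus that in ESCs with edgeR's quasi-likelihood F-test adjusted over all tested genes. Over all 18975 tested genes 10.2% were called lower and 12.8% higher. Stage and any change of medium or inhibitors cannot be told apart in this test. Gadd45b differed by −2.81 (adjusted p = 1.87e-08), and its libraries were low in KD EBs only. Fosb differed by −2.59 (adjusted p = 0.00684), with an ESC effect that rests on 3 to 12 counts per library. Fos differed by −2.20 (adjusted p = 2.04e-05), Zfp36 by −1.16 (adjusted p = 0.0345), Junb by −0.75 (adjusted p = 0.00232) and Ier2 by −0.34 (adjusted p = 0.0213). In all 6 the KD EB libraries lay below the WT EB libraries. The ESC difference was called in none of the 5 that were tested there. Few genes were called in ESCs at all, 0.168% of 16081 higher and 0.435% lower. The share of all genes whose EB groups separate in this way was not counted. The Zfp36 call was lost in 9 of the 12 fits without 1 library (adjusted p up to 0.0746). The Ier2 call was lost in 2 of them and with DESeq2 size factors (0.0556). Between 4 and 7 of the 10 genes were called over the 12 fits.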

How the results depend on the processing

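Member calls in EBs held in every alternative except the fit of all 12 libraries, which called 7 of 10 (Atf3 adjusted p = 0.0789), and all 10 kept theirs for EBs against ESCs in KD. The ESC counts over all genes moved: 97 genes were called, against 36 with library size only, 1769 without the filter, 1030 with the DESeq2 test, 266 with the replicate block and 1999 with all 12 libraries. Leaving out 1 library gave 8 to 1557, the highest without ESC WT replicate 2, and the share called higher ran from 27.8% as reported to 39.0% without the filter, 48.5% with all 12 libraries, 40.1% without ESC WT replicate 2 and 12.5% without ESC KD replicate 3. Members called in ESCs went from 0 to 1 (Jun) with all 12 libraries. The cause was not tested.

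Library size as the only scaling shifted the median of all genes by 0.11 in ESCs, 0.53 for EBs against ESCs in WT, 0.37 in KD and −0.16 for the difference between stages, where the share called higher went from 55.6% to 35.3%. Under it Junb (0.016) and Ier2 (0.049) turned sign in ESCs, Gadd45b (0.27) in WT EBs against ESCs, and Ier3 (−0.099) in the difference. Without 1 library, the ESC values ran from −0.14 to 0.18 for Fos (below 0 without ESC WT replicate 1 or 2 or ESC KD replicate 1 or 2), from −0.59 to 0.099 for Egr1 (above 0 without ESC WT replicate 2) and from −0.21 to 0.0084 for Junb (above 0 without ESC KD replicate 3). Ier3 in the difference ran from −0.079 to 0.19 (below 0 without EB WT or EB KD replicate 1). Jun in EBs was 0.026 with all 12 libraries. All of these were uncalled as reported except Gadd45b. In the difference, Ier2 lost its call with DESeq2 size factors (adjusted p = 0.0556), and Jun gained one with library size only (0.0165), no filter (0.0472) and the DESeq2 test (0.0418).

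Same-numbered replicates did not deviate together over all genes (r from −0.0264 to 0.0372). No pairing by number was thus seen, but a pairing that touches few genes would be missed by this measure. With the replicate block 8 of 10 members stayed called in EBs and 6 in the difference. Depth limits Fosb in ESCs, where it was too low to test.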
